A study of Mus musculus with 3 samples.

Results

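The 8 genes described here encode the machinery by which a cell loads peptides onto major histocompatibility complex (MHC) class II molecules and shows them to CD4+ T cells. They were picked by name from the 23860 genes of the deposited tables, by a rule that used no threshold on a measured value, though with earlier results of these data known: H2-Aa, H2-Ab1, H2-Eb1, Cd74, H2-DMa, H2-DMb1, H2-Oa and Ciita. All 8 were columns of both tables. They were followed across dendritic cells (DCs), B cells, Kupffer cells (KCs), monocyte subsets and endothelial cells of mouse liver, with T cells, neutrophils and hepatocytes as classes that should lack them.

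Single liver non-parenchymal cells, freed by collagenase perfusion and captured with the BD Rhapsody system, were measured in 2 libraries. The first library is titled MCD in its sample label, its header names it APAP0h, and the study's methods describe wild-type C57BL/6J mice on a normal chow diet (NCD). In the study MCD stands for a methionine-choline deficient diet, so that the title and the methods differ. The first library was assigned by elimination and is called the NCD library here. The second, called the HFHC pool, held wild-type and Chi3l1-/- mice on a high-fat, high-cholesterol (HFHC) diet together, and no cell of it carries a genotype in the tables. The remaining sample, the tags of that pool, was not analysed here. With 1 library per condition no difference between them has a replicate check, no p-value was computed, and diet, genotype, capture and library cannot be told apart. Every interval below is a 95% interval that covers counting error only.

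After filtering, 23346 cells with 49509045 molecules (unique molecular identifiers, UMIs) came from the NCD library and 19625 cells with 52044785 UMIs from the HFHC pool. Before filtering, the 30734 cells of the NCD library and the 21601 of the HFHC pool shared 756 cell barcodes, against 750.4 expected when barcodes are drawn from the set at random. A level is the summed UMIs of a gene in a class of cells, scaled to the total UMIs of that class (CPM, where 56745 CPM is 5.67% of them). UMIs count transcripts from their 3′ ends, so that levels were not divided by gene length, and a comparison between genes is of UMIs. Classes were named from fixed markers, none of them a class II gene, and the class II genes were kept out of the clustering. All markers of every class named below reached 10 CPM in both libraries, except 1 of 9 in the monocyte-derived macrophages (MoMFs) of the NCD library. The classes were named from these same markers, so that this is no check of the names. The limit is also low: the KC gene Clec4f, which DCs do not make, stood at 115 and 14.2 CPM in type 1 conventional DCs of the NCD library and the pool.

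In an antigen-presenting cell, the alpha chain H2-Aa pairs with the beta chain H2-Ab1 to form I-A, and H2-Eb1 encodes the beta chain of I-E. Mice of the C57BL/6 background do not display I-E, because the gene of its alpha chain is defective in them. CD74, the invariant chain, fills the groove of the new molecule and escorts it to the endosome. There H2-DM, made from H2-DMa and H2-DMb1, exchanges the CD74 remnant for peptide, and H2-O, of which H2-Oa is the alpha chain, restrains H2-DM. Ciita encodes the co-activator that turns on all of these genes. CIITA does not bind DNA itself: it is held by RFX at the X box and by NF-Y at the Y box of their promoters.

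Of the 8 genes, 6 lie on chromosome 17 of GRCm38 within the H2 complex, for example H2-Oa at chr17:34092340-34095234, H2-Ab1 at chr17:34257689-34269419 and H2-Aa at chr17:34282744-34287823 on the minus strand (GENCODE annotation). Ciita lies on chromosome 16 (chr16:10480059-10528418). The promoter windows of RefSeq (GRCm38.p6) matched 5 of the 8 genes by symbol; H2-Ab1, Cd74 and Ciita had none. The 250 bases before each start were searched on both strands for an X box core (GNAAC) followed after 20 to 34 bases by a Y box (ATTGG). The pair stood in 4 of the 5 matched genes, always on the coding strand: in H2-Aa, H2-Eb1, H2-DMb1 and H2-Oa, with 27 or 28 bases between the boxes. In H2-DMb1 the X box core began 94 bases before the RefSeq start, but all 58 bases of that stretch lie in an exon of the GENCODE annotation, whose start is further upstream. Neither window of H2-DMa held the pair. Of all 32851 windows, 2.09% held it, and 33.8% held a Y box on either strand. The stretches below are shown because the levels described later were most alike among these genes or, for H2-Oa, most unlike. They run from 20 bases before the X box core to the end of the Y box, 5′ to 3′ on the coding strand, with both boxes in capitals. They lie at chr17:34287867-34287924 (minus strand), chr17:34305756-34305812 (plus strand) and chr17:34092283-34092340 (plus strand).
H2-Aa: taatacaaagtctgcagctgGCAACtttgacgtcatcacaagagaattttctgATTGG
H2-Eb1: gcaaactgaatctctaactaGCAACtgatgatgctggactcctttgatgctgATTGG
H2-Oa: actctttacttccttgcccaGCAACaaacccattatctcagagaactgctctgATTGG

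MoMFs and cDC1s, the type 1 conventional DCs, carried the most class II transcripts in both libraries. B cells and KCs stood below all conventional and migratory DCs, and monocytes carried far fewer. In the NCD library the 8 genes summed to 56745 CPM (interval 56324 to 57169) in the 198 cDC1s. In the HFHC pool they summed to 44891 CPM (44542 to 45243) in 136 cDC1s. The type 2 conventional DCs (cDC2s) stood at 49389 CPM (48966 to 49815, 268 cells) and 36800 CPM (36516 to 37086, 244 cells). The MoMFs had 56956 CPM (56112 to 57810, 87 cells) in the NCD library, within counting error of the cDC1s, and 48443 CPM (47957 to 48933, 98 cells) in the pool. The KC gene Clec4f stood at 854 and 72.7 CPM in the MoMFs of the NCD library and the pool, against 115 and 14.2 CPM in the cDC1s. Timd4, also a KC gene, stood at 85.4 and 3.83 CPM in the MoMFs. The class thus carried more KC transcripts on NCD, and their part in its level was not tested. B cells had 26068 CPM (25839 to 26298, 1343 cells) and 25442 CPM (25242 to 25642, 815 cells). KCs, the resident macrophages of the liver, had 16372 CPM (16304 to 16441, 2715 cells) and 28922 CPM (28748 to 29097, 393 cells), so that they stood below the B cells on NCD and above them in the pool. The order in the pool depended on the limit of 4000 genes per cell described below. With no such limit the KCs of the pool had 22363 CPM (22284 to 22442), below the B cell level given here.

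Migratory DCs had 37318 CPM in 32 cells and 31616 CPM in 35 cells, above B cells and KCs in both libraries. An unnamed myeloid cluster with the leading genes Ly6i, Cxcl9 and Acod1, called the Ly6i cluster here, also stood above them at 37678 CPM (153 cells) and 36831 CPM (293 cells). Its interval overlapped that of the migratory DCs on NCD and that of the cDC2s in the pool. Plasmacytoid DCs (pDCs), the interferon-producing DCs, stood below the KCs with 10942 CPM (655 cells) and 10793 CPM (221 cells). Classical monocytes had 7114 CPM (6905 to 7328, 180 cells) and 8592 CPM (8435 to 8752, 225 cells). The 103 non-classical monocytes of the NCD library, at 7110 CPM (6783 to 7449), did not differ from the classical ones beyond counting error. The 76 of the pool, at 9690 CPM (9362 to 10028), stood above the classical ones in this summed level, but not in the counts per cell given below.

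**Figure D1:**
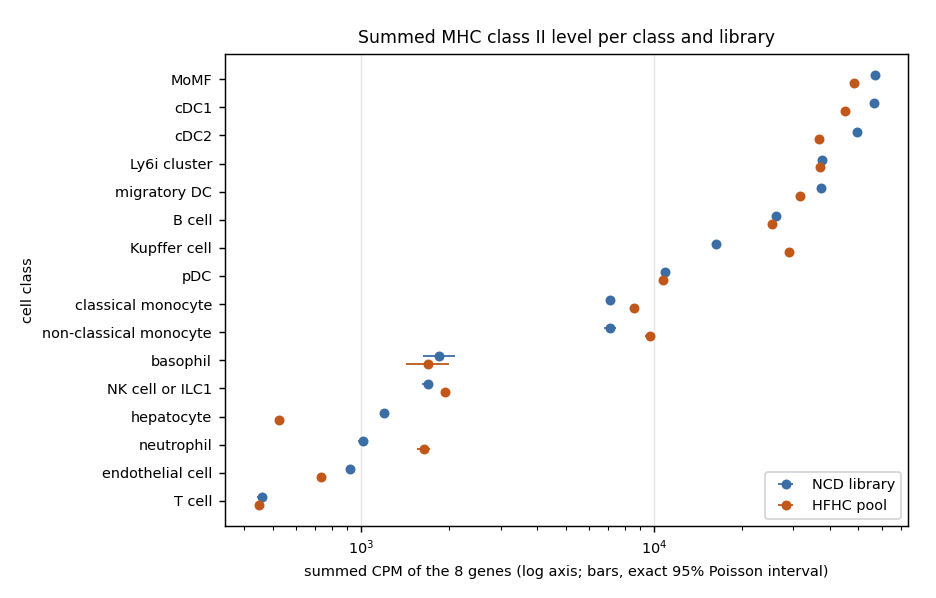
Summed level of the 8 genes in each class (CPM, log axis) in the NCD library (blue) and the HFHC pool (orange), with exact 95% Poisson intervals as bars, which are mostly narrower than the points; a plasma cell cluster is left out. Classes run from 56956 CPM in the MoMFs down to 451 CPM in T cells, and KCs, at 16372 and 28922 CPM, lie higher in the pool.

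T cells set the background, since mouse T cells do not make class II. They held 459 CPM (442 to 476) on NCD and 451 CPM (438 to 464) in the pool. The cDC1s stood 124-fold and 99.6-fold above them, B cells 56.8-fold and 56.4-fold, KCs 35.7-fold and 64.2-fold, and classical monocytes 15.5-fold and 19.1-fold. Neutrophils had 1014 and 1641 CPM and hepatocytes 1198 and 526 CPM, so that the background itself differed between classes and libraries.

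Endothelial cells could not be set apart from the range of these background classes. Their 8 genes summed to 917 CPM (893 to 941, 2618 cells) on NCD and 733 CPM (707 to 761, 643 cells) in the pool, below the neutrophils of the same library in each case. When every cell was thinned to 1000 UMIs, a Cd74 UMI was found in 17.0% (15.4 to 18.7) of the NCD endothelial cells, and in 14.2% (11.6 to 17.2) in the pool. The T cells had one in 14.1% (12.8 to 15.5) and 15.1% (13.8 to 16.6). Median depths were 2039.5 and 5678 UMIs in the endothelial cells and 1852.5 and 3439 UMIs in the T cells. Before thinning, 29.8% and 43.7% of the endothelial cells had a Cd74 UMI, against 26.1% and 37.4% of the T cells. Among the 1000 UMIs, 1.27% of the endothelial cells of the NCD library had 10 or more class II UMIs, and these 27 cells held the B cell gene Cd79a at 408 CPM and the KC gene Clec4f at 541.5 CPM, against 12.0 and 81.9 CPM in the other endothelial cells. Removing doublets called by Scrublet took the endothelial level of the NCD library from 917 to 465 CPM, and that of the pool from 733 to 705 CPM. The log2 ratio between the libraries (pool over NCD) thereby turned from −0.32 to 0.60, so that no direction holds for endothelial cells. None of the 5 members with at least 100 UMIs there differed by more than 1 on the log2 scale, against 9.71% of 8870 genes higher and 4.63% lower in the pool.

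The 3 chain genes and Cd74 made up nearly all class II UMIs, and Ciita, H2-DMa, H2-DMb1 and H2-Oa were a small remainder in every class. In the cDC1s of the NCD library, H2-Ab1 stood at 22288 CPM, Cd74 at 13786, H2-Aa at 11830 and H2-Eb1 at 7087 CPM. H2-DMa, H2-DMb1 and Ciita lay between 525 and 580.3 CPM there, and H2-Oa at 116 CPM. In the cDC1s of the pool Cd74 was the highest at 17646 CPM, ahead of H2-Ab1 at 11505 CPM. Across 31 points, each a named class of at least 50 cells in 1 library, the log2 levels of H2-Aa, H2-Ab1, H2-Eb1, Cd74 and H2-DMb1 correlated with each other at r of 0.96 or more. Ciita correlated with each of the other members at r of 0.93 to 0.97, except H2-Oa (0.52). These points share libraries, depth and free RNA, and the values are a description. The factors that hold CIITA at the promoter were correlated less with the mean of the 8 genes: Rfx5 stood at r = 0.42, Rfxap at −0.35 and Nfya at 0.64.

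**Figure D2:**
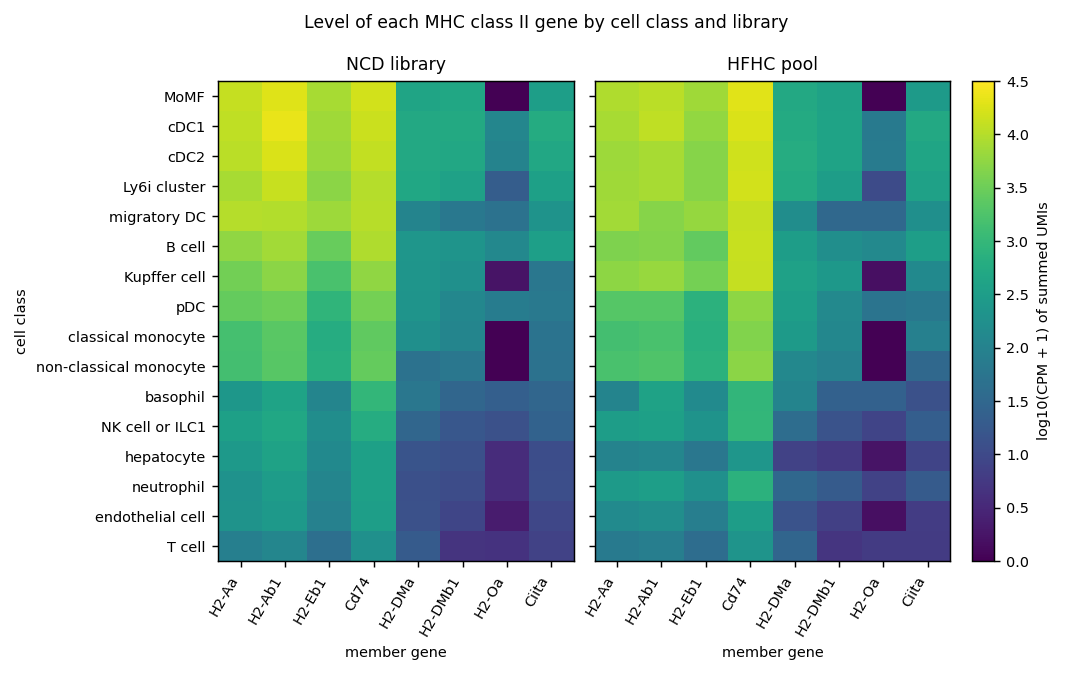
Level of each of the 8 genes as log10(CPM + 1), classes as rows from the highest to the lowest summed level of the NCD library and genes as columns, with the NCD library on the left and the HFHC pool on the right. H2-Oa is near 0 in MoMFs, KCs and monocytes, where the other 7 genes are measured, and is present in DCs and B cells.

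H2-Oa was the member whose pattern differed most, with r of 0.36 to 0.52 against each other member. It was measured in B cells (125 and 131 CPM), cDC1s (116 and 71.8 CPM), cDC2s (103 and 72.2 CPM) and pDCs (77.1 and 53.1 CPM), in the NCD library and the pool in that order. In KCs 10 UMIs in 2715 cells gave 0.74 CPM and 2 UMIs in 393 cells gave 0.55 CPM. MoMFs, whose summed level was as high as that of the cDC1s on NCD and higher in the pool, had no H2-Oa UMI in either library, which allows up to 9.85 and 3.83 CPM. Monocytes of both kinds had none either. In T cells H2-Oa stood at 3.5 and 5.0 CPM. H2-Ob, the beta chain of H2-O and not one of the 8, was highest in B cells (778 and 804 CPM), at 273 and 239 CPM in cDC1s and at 4.96 and 4.93 CPM in KCs.

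Migratory DCs had less of the H2-DM genes than the conventional DCs, which were alike on NCD (H2-DMa 525 and 521 CPM, H2-DMb1 532 and 504 CPM in cDC1s and cDC2s). H2-DMa had 521 CPM in cDC2s and 105 CPM in migratory DCs of the NCD library, and 618 and 159 CPM in the pool. H2-DMb1 had 504 and 63.2 CPM, and 404 and 32.7 CPM. The values of the migratory DCs rest on few molecules, 15 and 34 UMIs of H2-DMa and 9 and 7 of H2-DMb1. Ciita (508 against 203.5 CPM) and H2-Ab1 (17699 against 9705 CPM) were also lower in migratory DCs than in cDC2s on NCD. H2-Eb1 differed less between the same subsets, with 6710 against 6884 CPM on NCD and 4860 against 6095 CPM in the pool. H2-DMb2, a neighbour of H2-DMb1 with a similar sequence, was highest in B cells at 1394 and 1081 CPM, where H2-DMb1 had 215 and 169 CPM. Reads of these neighbours may have been split between them, which makes the balance of the 2 genes uncertain. H2-Eb2, a further E beta gene, was highest in migratory DCs (365 and 463 CPM) and stood at 11.5 and 2.84 CPM in cDC1s.

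Within a class, cells differed widely. At 1000 UMIs per cell the median cDC1 of the NCD library had 55 class II UMIs (10th to 90th percentile 38.6 to 78) and that of the pool 44.5 (30 to 59.5). All 197 cDC1s of the NCD library deep enough to be thinned had 10 or more. B cells had medians of 27 (14 to 40) and 26 (15 to 39), and 5.21% and 3.57% of them had fewer than 10. The cDC2 class was split: the medians were 57 (1 to 94.8) and 35 (2 to 76.7), and 23.6% of its cells on NCD and 24.6% in the pool had fewer than 10. These low cells held the pDC gene Siglech at 1434 and 1398 CPM, against 95 and 194 CPM in the other cDC2s, and Ly6c2 at 5086 and 4056 CPM against 259 and 629.5 CPM. Cd209a, a cDC2 marker, was lower in them at 766 and 504 CPM against 1785 and 1276 CPM. Clec10a (73.2 and 136 against 318 and 250 CPM) and Itgax (237 and 342 against 616 and 599 CPM), also cDC2 markers, were lower too. Flt3, a further cDC2 marker, was higher in them at 607 and 337 CPM against 418 and 274 CPM. The T cell gene Trbc2 was also higher, at 142 and 211 CPM against 31.7 and 35.3 CPM. The migratory DCs were split as well, with medians of 37.5 (2.1 to 79.9) and 25 (2.4 to 65.6) in 32 and 35 cells. Of these cells 31.25% and 28.6% had fewer than 10. Their median in the pool thus lay below that of the B cells and that of the KCs (26.5), although their summed level stood above both. The Ly6i cluster was also split, with medians of 34 (1 to 66) and 37 (2 to 68), and 34.4% and 20.5% of its cells had fewer than 10. Its low cells held more Cxcl9 (7540 and 2613.5 against 2770 and 1343 CPM) and less Ly6i (724 and 276 against 1420 and 944 CPM). In classical monocytes the median was 1 UMI (0 to 18.4) on NCD and 2 (0 to 29) in the pool. In that class 15.8% and 21.3% of cells had 10 or more, and these 28 and 48 cells held Cd209a at 444 and 325 CPM against 92.2 and 17.3 CPM in the rest. Clec10a (151 and 223 against 47.1 and 32.7 CPM) and Flt3 (85.0 and 97.7 against 60.8 and 32.7 CPM) were higher too. Itgax was lower in them on NCD (9.44 against 15.7 CPM) and higher in the pool (31.4 against 12.5 CPM). Ly6c2 stood at 1680.5 and 1766 against 2602 and 2204 CPM. A Cd74 UMI was found in 49.7% (42.1 to 57.3) and 60.9% (54.2 to 67.3) of the thinned classical monocytes, and in 99.8% and 100% of the B cells.

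**Figure D3:**
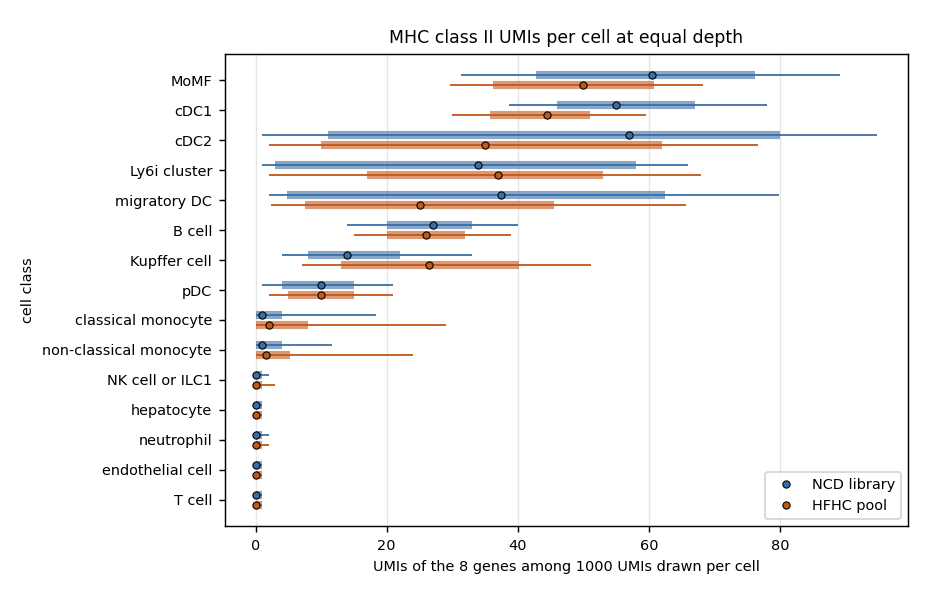
Class II UMIs among 1000 UMIs drawn from each cell, with the median (point), the 25th to 75th percentile (thick bar) and the 10th to 90th percentile (thin line) per class and library; basophils and a plasma cell cluster are left out. The cDC2s reach down to 1 or 2 UMIs at the 10th percentile, and KCs of the pool lie above those of the NCD library.

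The 2 libraries set livers described as on normal chow against pooled wild-type and Chi3l1-/- livers on the HFHC diet. Their comparison is therefore not one of diet alone. The KCs were higher in the pool, the conventional DCs lower, and B cells and pDCs nearly level. In KCs, H2-Eb1 was 1624 CPM on NCD and 3696 CPM in the pool, Cd74 5593 and 12572 CPM, and Ciita 60.3 and 138 CPM. These 3 genes had log2 ratios of 1.19 (counting interval 1.16 to 1.22), 1.17 (1.15 to 1.19) and 1.19 (1.03 to 1.35). H2-DMa (222 and 380 CPM) stood at 0.77, H2-Aa (3541 and 5486 CPM) at 0.63, H2-DMb1 (183 and 252 CPM) at 0.47 and H2-Ab1 (5149 and 6398 CPM) at 0.31. All 7 members with at least 100 UMIs in KCs were thus higher in the pool, 3 of them by more than 1 on the log2 scale, while 3.65% of the 8897 KC genes with that many UMIs were higher and 3.9% lower by more than 1. The sum of the 8 genes was 1.77-fold higher (log2 ratio 0.82, 0.81 to 0.83). It lay at percentile 94.8 of the ratios of all KC genes, whose median was −0.03.

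This difference in KCs depended on the upper limit of 4000 genes per cell. That limit removed 814 cells from the pool and 68 from the NCD library, and without it the class held 450 KCs of the pool with more than 4000 genes, at a median of 22624 UMIs, and 23 such cells of the NCD library. The deep KCs of the pool had 20611 CPM (20524 to 20697) and the shallower ones 28171 CPM (27987 to 28356). With no limit the log2 ratio was 0.44 over all KCs. Gene by gene it was then 0.84 for Cd74, 0.72 for Ciita, 0.70 for H2-Eb1, 0.63 for H2-DMa, 0.23 for H2-DMb1, 0.20 for H2-Aa and −0.11 for H2-Ab1, whose direction turned. Among KCs over 4000 genes alone the sum differed by 0.02. Median depth was also unequal within the limit, at 4544 UMIs per KC on NCD and 10193 in the pool.

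The difference was found in each cluster of KCs within the limit. In the largest, with 2017 and 306 cells, the sum was 16275 and 29415 CPM. In the next, with 655 and 74 shallower cells, it was 18608 and 26672 CPM. In the smallest, marked by the proliferation gene Mki67, with 43 and 13 cells, it was 9959 and 13512 CPM. Timd4 marks KCs of embryonic origin. At 2000 UMIs per cell, KCs of the NCD library without a Timd4 UMI (502 cells) and with at least 1 (1648 cells) had 16207 CPM (15959 to 16458) and 16429 CPM (16291 to 16568), whose intervals overlapped. In the pool the 113 cells without a Timd4 UMI had 32965 CPM (32220 to 33722) and the 225 with at least 1 had 26436 CPM (25963 to 26915). Timd4 itself stood at 808 and 738 CPM in the largest cluster, 683 and 896 CPM in the next and 651 and 490 CPM in the smallest. At this depth a cell that makes it can show no UMI by sampling alone. The split is therefore partly one of sampling and does not separate KCs by origin. The per-cell medians at 1000 UMIs were 14 (4 to 33) and 26.5 (7 to 51.1), and the share of KCs with fewer than 10 class II UMIs was 32.0% on NCD and 13.9% in the pool. In the pool, KCs with 10 or more held the monocyte gene Ccr2 at 69.8 CPM and those with fewer at 5.85 CPM. In the NCD library these values were 13.1 and 4.20 CPM. Ly6c2, also a monocyte gene, went the other way in the pool, with 4.16 CPM in KCs with 10 or more and 7.80 CPM in those with fewer. In the NCD library it was 12.2 and 6.54 CPM. Clec4f, the defining KC gene, was 4289 and 5866 CPM in the same 2 groups of the pool, and 6080 and 6294.5 CPM in those of the NCD library.

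Conventional DCs were lower in the pool for the chains of class II itself. H2-Ab1 was 22288 and 11505 CPM in cDC1s (log2 ratio −0.95, −0.98 to −0.93) and 17699 and 8196 CPM in cDC2s (−1.11, −1.14 to −1.08). H2-Aa was 11830 and 8267 CPM in cDC1s (−0.52) and 10948 and 6985 CPM in cDC2s (−0.65). H2-Eb1 differed less, by −0.26 and −0.47. Cd74 went the other way, with 13786 and 17646 CPM in cDC1s (0.36, 0.33 to 0.38) and 12397 and 15223 CPM in cDC2s (0.30, 0.27 to 0.33). Ciita stood at 580.3 and 523 CPM in cDC1s, with an interval of the ratio of −0.30 to 0.00, and at 508 and 442 CPM in cDC2s (−0.36 to −0.04). Over cDC1s, cDC2s and migratory DCs together, 1 of the 8 members (H2-Ab1, −1.06) was lower by more than 1, against 2.22% of 6541 genes. None was higher by more than 1, against 3.61%. Their sum was 52392 and 39852 CPM (log2 ratio −0.39, −0.41 to −0.38), in a class whose median gene ratio was 0.10. Clec4f, which DCs do not make, stood at 115 and 14.2 CPM in cDC1s and at 114 and 12.6 CPM in cDC2s. Its part in the result was not tested.

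**Figure D4:**
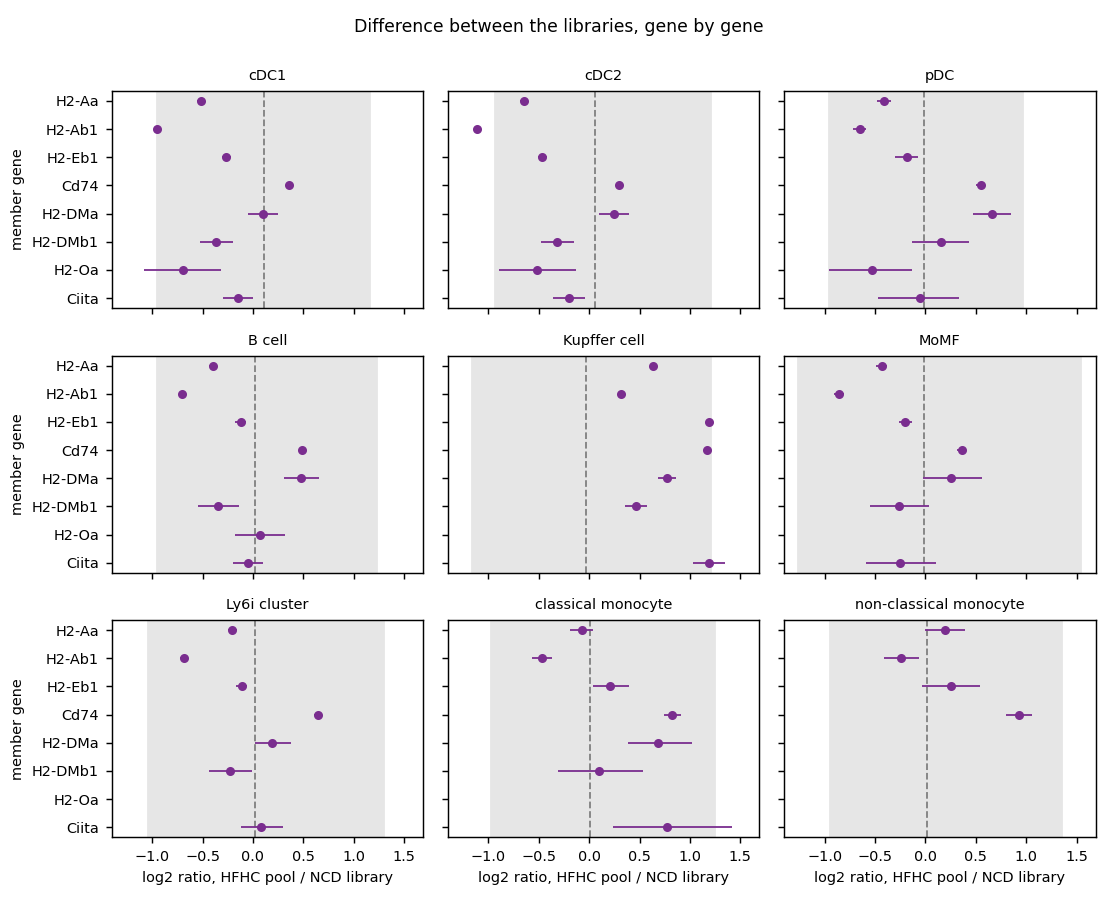
Log2 ratio, HFHC pool over NCD, for each member with at least 100 UMIs in 9 classes (points, with 95% counting intervals); the dashed line is the median of all genes tested in that class and the grey band holds their central 95%. All 7 KC points lie to the right of the line, whereas in cDC1s, cDC2s, pDCs, B cells, MoMFs and the Ly6i cluster Cd74 lies to the right and H2-Ab1 to the left.

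B cells showed the same split between Cd74 and the chains with a nearly level total. Cd74 was 9372 and 13117 CPM (0.48), H2-DMa 226 and 316 CPM (0.48), H2-Ab1 7376 and 4536 CPM (−0.70) and H2-Aa 5565 and 4226 CPM (−0.40). The log2 ratio of the sum was −0.04 (−0.05 to −0.02). None of the 8 passed 1 in either direction, against 3.95% of 5871 genes above and 2.15% below. In pDCs Cd74 was 3667 and 5360 CPM (0.55) and H2-Ab1 3241 and 2059 CPM (−0.65), and the sum differed by −0.02 (−0.05 to 0.01). None of the 8 passed 1, against 2.4% of 5118 pDC genes above and 2.25% below.

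Monocytes of the pool had more Cd74 and H2-DMa and about as much H2-Aa. Over both subsets Cd74 was 2560 and 4567 CPM (0.83, 0.77 to 0.90), H2-DMa 137 and 249 CPM (0.85, 0.56 to 1.17), H2-Aa 1471 and 1460 CPM (−0.01, −0.11 to 0.09) and H2-Ab1 2184 and 1636 CPM (−0.42). The sum was 7113 and 8816 CPM (0.31, 0.27 to 0.35). None of the 7 members with at least 100 UMIs passed 1, against 3.66% of 3904 genes above and 2.13% below. In MoMFs H2-Ab1 was 19291 and 10668 CPM (−0.85) and Cd74 15784 and 20245 CPM (0.36). The part of the KC transcripts of the NCD MoMFs in these values was not tested. In the Ly6i cluster H2-Ab1 was 13064 and 8122 CPM (−0.69) and Cd74 9872 and 15421 CPM (0.64), with a sum that differed by −0.03 (−0.05 to −0.01). The share of its cells with fewer than 10 class II UMIs among 1000 was not level, at 34.4% on NCD and 20.5% in the pool. No member passed 1 in MoMFs, against 6.05% of 1885 genes above and 4.4% below, or in the Ly6i cluster, against 4.33% of 4022 genes above and 2.78% below.

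A plasma cell cluster counts among the 17 classes below and the 31 points of the correlations. It was compared no further, because its cells differed between the libraries: the antibody chain gene Jchain stood at 3961 and 20712 CPM and the cDC1 gene Xcr1 at 460.3 and 64.5 CPM. On NCD 74.1% of its cells had 10 or more class II UMIs among 1000. These 63 cells held Xcr1 at 589 and Cd79a at 42.5 CPM, against 0 and 745 CPM in the other 22, so that the name may not hold for them.

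The shift from H2-Ab1 to Cd74 was present in nearly every class of the pool. Cd74 made up a larger share of the class II UMIs of the pool in 17 of 17 classes, and H2-Ab1 a smaller one in 16 of 17. H2-Aa was smaller in 17 of 17 and H2-DMa larger in 16 of 17. The number of Cd74 UMIs per H2-Ab1 UMI was 0.62 and 1.53 in cDC1s, 1.27 and 2.89 in B cells, 1.09 and 1.96 in KCs and 1.13 and 2.76 in classical monocytes. It was also 1.58 and 2.63 in T cells, 0.93 and 2.01 in hepatocytes and 1.16 and 2.32 in neutrophils, classes at background. Basophils, with 73 and 18 cells, had 2.36 and 2.34. All classes of a library share its chemistry, depth and free RNA, so that the classes are not independent, and the part of these in the shift was not tested.

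**Figure D5:**
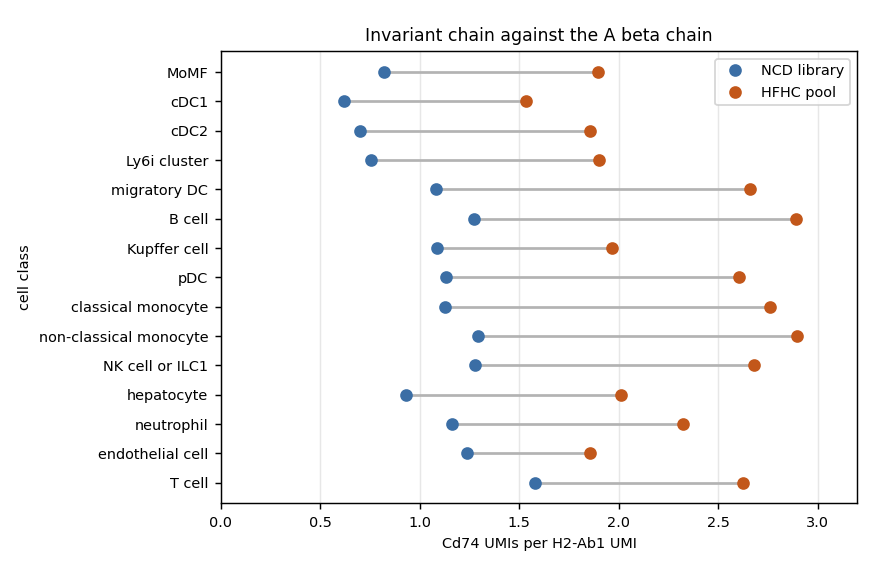
Cd74 UMIs per H2-Ab1 UMI in each class of the NCD library (blue) and the HFHC pool (orange), joined by a grey line; basophils and a plasma cell cluster are left out. The pool lies to the right in every class shown, including T cells, neutrophils and hepatocytes.

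Genes that work around class II loading were counted whole from fixed lists of 7 promoter factors, 8 processing genes, 6 turnover entries, 6 costimulatory genes, 9 genes of the interferon gamma axis and 9 class I presentation genes. In KCs none of 6 promoter factors, 4 turnover genes, 5 costimulatory genes, 7 interferon gamma genes or 9 class I genes with enough UMIs passed 1 in either direction. Of 7 processing genes 1 did, the protease gene Ctsd, with 188 and 1079 CPM (2.52). Of all 8897 KC genes tested, 3.65% were higher and 3.9% lower by more than 1. At such shares few or no genes of lists this short would pass, so that the absence of others is no result about the lists. Ctsd was higher in the pool by more than 1 in many other classes too, among them T cells (35.7 and 150.1 CPM, 2.06), neutrophils (96.9 and 390.0 CPM, 2.01), NK cells or ILC1s (2.30), pDCs (1.90) and endothelial cells (1.34), so that its difference was not particular to KCs. March1, whose product sends class II for degradation, was 125 and 181 CPM (0.53) in KCs, and Tap2, a peptide transporter of the class I pathway, 62.2 and 35.4 CPM (−0.81). Irf1, an interferon-induced regulator, was 218 and 281 CPM (0.37). The median of the 9 class I genes was −0.29 in KCs, where that of the 7 class II members was 0.77. The class I median was also below 0 in cDC1s (−0.26), cDC2s (−0.32), pDCs (−0.50), MoMFs (−0.41), the Ly6i cluster (−0.52) and T cells (−0.26). It was −0.04 in B cells and 0.37 in neutrophils. The lower class I median was therefore not particular to KCs.

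Over cDC1s, cDC2s and migratory DCs together, without the pDCs, none of the genes in these lists with enough UMIs passed 1 in either direction. H2-DMb2, 1 of 3 further class II genes, did (344 and 162 CPM, −1.08). Cst3, a protease inhibitor abundant in DCs, came nearest at 17002 and 8851 CPM (−0.94). Rfx5 was 17.8 and 33.3 CPM (0.88), and Cd83, which protects class II from degradation, 137 and 252 CPM (0.87). In cDC1s alone, 1 of 3 promoter factors passed 1 (Nfyc, 23.7 and 54.7 CPM, 1.18). So did 1 of 3 turnover genes (Cd83, 89.2 and 244.5 CPM, 1.45), and in cDC2s alone none of the genes in these lists did. The share of all genes passing 1 is not given for either class alone, so that these counts cannot be set against it. Over cDC1s, cDC2s and migratory DCs together 3.61% of 6541 genes were higher and 2.22% lower by more than 1. The grey band of all genes tested, drawn in the figure of log2 ratios, ran from −0.95 to 1.17 in cDC1s (3845 genes). In cDC2s it ran from −0.94 to 1.21 (4381 genes). Nfyc lay at the upper edge of the cDC1 band and Cd83 above it. In B cells Cd83 was 98.0 and 316 CPM (1.68) and Cd274, the PD-1 ligand gene, 24.1 and 72.3 CPM (1.56). No other list gene passed 1 in B cells. In monocytes 1 of 6 processing genes (Ctsd, 20.8 and 84.1 CPM, 1.95) and 1 of 3 turnover genes (Cd83, 35.7 and 88.9 CPM, 1.28) passed 1, and none of the other lists did. In MoMFs 1 of 7 processing genes (Ctsd, 78.8 and 719.5 CPM, 3.13) and 1 of 7 class I genes (Tap1, 302 and 135 CPM, −1.16) passed 1. In the Ly6i cluster 1 of 6 processing genes (Ctsd, 41.5 and 272 CPM, 2.67) and 1 of 8 interferon gamma genes did (Socs1, a brake on interferon signalling, 83.1 and 24.5 CPM, −1.75). H2-DMb2, outside these lists, was also lower by more than 1 in that cluster (103 and 40.1 CPM, −1.37) and in cDC2s (468 and 198 CPM, −1.24). It did not pass 1 in cDC1s (−0.96), B cells (−0.37), KCs (−0.33) or pDCs (−0.17). The shares of all genes passing 1 in B cells, monocytes, MoMFs and the Ly6i cluster, given above, lay between 2.13% and 6.05% in each direction.

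Outside these lists, the 10 genes whose levels followed the mean of the 8 members most closely over the 31 points, among 11678 genes, were Fgd2 (r = 0.93), Cd180, Pkib, Ly86, Erp29, Rp2, Tbc1d9, Rassf4, Pld4 and BC035044 (r = 0.81). Fgd2, a guanine nucleotide exchange factor, stood at 231 and 195 CPM in cDC1s, 89.1 and 74.3 CPM in B cells, 97.3 and 85.2 CPM in KCs and 3.7 and 2.1 CPM in T cells. Cd180, a Toll-like receptor relative, and Ly86, its partner, were both among the 10. Cd180 had 241 and 405 CPM in KCs and 463 and 466 CPM in cDC1s. No p-value was given to these correlations.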

How the data were processed

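The authors made the deposited tables of counts (UMIs per cell and gene, error-corrected by recursive substitution) with the BD Rhapsody WTA Analysis Pipeline 1.10.1 on GRCm38 with GENCODE vM19, per the file headers, and called cells with its refined method. Per the labels, Seurat was used downstream. The filter kept cells in which 200 to 4000 genes were detected and at most 25% of UMIs were mitochondrial. Both libraries were normalised with SCTransform (4000 features, mitochondrial share regressed out) and integrated by reciprocal PCA (30 components, 20 neighbours, resolution 0.8, seed 42). Myeloid cells were clustered again at 0.5. The class II genes were left out of the features. Tools were R 4.3.3, Seurat 5.3.0, sctransform 0.4.2, python 3.11.15, numpy 2.4.6, scipy 1.17.1 and scanpy 1.11.5 (Scrublet).

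A cluster took a name at a marker score of at least 1 with 3 or more markers each detected in 10% of its cells, and was set aside as mixed at a score of 2 or more for another lineage. Scrublet marked 8.25% of NCD cells and 2.34% of pool cells, which stayed in except in an alternative. UMIs were summed per class and divided by all UMIs of the class. Intervals are exact Poisson (levels), exact binomial (Clopper-Pearson, shares) and exact conditional binomial (ratios) at 95%. Where a count was 0, the upper limit is 3 counts per class and library. Log2 ratios had 1 UMI added on each side, and genes with at least 100 UMIs over both libraries were counted. For shares and per-cell counts each cell was thinned to 1000 UMIs and shallower cells were left out. Among them were 490 and 11 endothelial cells, 381 and 7 T cells, 345 and 2 B cells and 268 and 13 KCs. Neutrophils lost 1533 of 3240 and 3 of 353 cells, and hepatocytes 3396 of 4736 and 3900 of 9058. The ratio was tested on simulated data.

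Named genes were the 8 members; of each fixed list the genes with the highest and lowest ratio, with 10 UMIs in each library; the 10 genes outside the lists with the highest correlation with the members; and cell type markers. The members and lists were chosen with earlier results of these data known.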

Additional observations from a re-analysis of the deposited data

Results flagged for a closer look

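The log2 ratio of the summed 8 genes, HFHC pool over NCD library, had opposite signs in different cell classes. It was 0.82 in KCs and 0.31 in monocytes, and −0.39 in dendritic cells (cDC1s, cDC2s and migratory DCs), −0.32 in endothelial cells and −0.035 in B cells. The sign in endothelial cells does not hold, since the ratio was 0.60 with Scrublet doublets removed. With 1 library on each side the difference between classes was not tested.

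The cells left out for having more than 4000 genes held class II transcripts above the level of T cells. In the NCD library 68 such cells had 11641 CPM (11459 to 11826), against 459 CPM in its T cells. In the HFHC pool 814 such cells had 18692 CPM (18630 to 18753), against 451 CPM. These cells held the KC gene Clec4f at 2676 CPM in the NCD library and 3716.5 CPM in the pool, so that KCs are among them. Their levels lay below those of the KCs within the limit, at 16372 and 28922 CPM.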

How the results depend on the processing

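No paired analysis was possible because each condition had 1 library. DCs in this section are the cDC1s, cDC2s and migratory DCs, without the pDCs. In KCs, DCs, B cells and monocytes the sign of the summed log2 ratio was the same under all alternatives run, with ranges of 0.44 to 0.85, −0.50 to −0.29, −0.11 to −0.02 and 0.22 to 0.42. In endothelial cells it ranged from −1.02 to 0.60. The causes of these shifts were not tested.

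With the class II genes kept among the variable genes the ratio was −0.35 in DCs, −0.053 in B cells, 0.78 in KCs, 0.24 in monocytes and −0.49 in endothelial cells. The levels in the NCD library and the pool were then 52979 and 41661 CPM in DCs, 25330 and 24412 CPM in B cells, 16452 and 28228 CPM in KCs, 5315 and 6265 CPM in monocytes and 605 and 430.2 CPM in endothelial cells. With Scrublet doublets removed the ratio was −0.43 in DCs and 0.60 in endothelial cells, and the levels were 53920 and 40119 CPM in DCs, 27019 and 26640 CPM in B cells and 465 and 705 CPM in endothelial cells. A mitochondrial limit of 10% gave −0.29 in DCs, −0.11 in B cells and 0.42 in monocytes, and left no endothelial class to measure. With no upper limit on genes it was −0.37 in DCs, 0.44 in KCs and −1.02 in endothelial cells. Clustering at a resolution of 1 gave −0.36 in DCs. A mean over cells gave −0.055 in B cells and 0.79 in KCs. Totals without mitochondrial and class II genes gave −0.44 and 0.85 in DCs and KCs, and setting the median gene ratio to 0 gave −0.50 and 0.85. Counting the Ly6i cluster as monocytes, chosen after seeing the data, gave 0.22.

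Without thinning, a Cd74 UMI was found in 96.6% and 97.3% of DCs, 98.3% of KCs of the NCD library, 66.1% and 81.4% of monocytes and 29.8% and 43.7% of endothelial cells. At 2000 UMIs the shares were 95.8% in DCs of the pool, 99.0% and 99.7% in KCs, 57.0% and 69.2% in monocytes and 25.5% and 22.2% in endothelial cells.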
